A study of Mus musculus with 12 samples.

Results

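The NLRP genes described here are 10 paralogs that mouse oocytes express beside Nlrp5, namely Nlrp2, Nlrp4a, Nlrp4b, Nlrp4c, Nlrp4e, Nlrp4f, Nlrp9a, Nlrp9b, Nlrp9c and Nlrp14. They were chosen by symbol, matched to Ensembl IDs through the GENCODE annotation of GRCm38, and all 10 were found among the 55573 genes of the count files. The soRNA-seq libraries were made from 8 GV oocytes, which are fully grown oocytes with an intact nuclear envelope, taken from the ovaries of a B6D2_F1 female mouse aged 12 weeks and kept in M2 medium with milrinone. Of these oocytes, 6 were used whole, and their cDNA was amplified for 10, 14 or 18 cycles with 2 oocytes each. The lysates of the other 2 were diluted to 1/2, 1/4 and 1/8 of an oocyte, and these 6 libraries were amplified for 18 cycles. The same amount of ERCC spike-in was added to each library, and poly(A) RNA was sequenced from Nextera libraries. No group carried a treatment or a genetic alteration.

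Depth in gene counts was 11597144 and 9189672 for the oocytes amplified for 10 cycles, 12349577 and 13806199 for those with 14, and 3017069 and 1706478 for those with 18. The 1/2 libraries had 4024670 and 3598549 gene counts, the 1/4 libraries 4027907 and 5049518, and the 1/8 libraries 11404262 and 1702062. Replicates at each cycle number are different oocytes, whereas the fractions come from 2 oocytes only. Between the cycle numbers, depth, cycle number and oocyte differed together and cannot be told apart. The fractions and the whole oocytes at 18 cycles shared the cycle number but differed in depth, oocyte and amount of lysate. These cannot be told apart either. The p-values below measure only the spread between these libraries.

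NLRP proteins belong to the NOD-like receptors and combine a pyrin domain, a nucleotide-binding domain and leucine-rich repeats. Some members of the wider family build inflammasomes in immune and epithelial cells, whereas a reproductive clade is transcribed mainly in oocytes, and its products are carried over to the early embryo. Several of these proteins sit in or near the subcortical maternal complex, a protein assembly of the egg and early embryo that also holds Nlrp5 (Mater).

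Of the 10 genes, 9 lie on chromosome 7 and 1, Nlrp4f (ENSMUSG00000032999), lies on chromosome 13 at chr13:65177111-65205977 on the minus strand (GRCm38). Nlrp9c (ENSMUSG00000040614, chr7:26322473-26403700, minus strand), Nlrp4a (ENSMUSG00000040601, chr7:26435113-26476142, plus) and Nlrp9a (ENSMUSG00000054102, chr7:26535023-26575615, plus) were neighbours, with 31.4 and 58.9 kb between them. Nlrp4e (ENSMUSG00000045693, chr7:23301192-23362277, plus) lay 23.6 kb from Nlrp5 (ENSMUSG00000015721, chr7:23385889-23441922, plus). Nlrp2 (ENSMUSG00000035177, chr7:5298547-5351035, minus), Nlrp4c (ENSMUSG00000034690, chr7:6045161-6105150, plus), Nlrp4b (ENSMUSG00000034087, chr7:10687789-10730168, plus) and Nlrp9b (ENSMUSG00000060508, chr7:19991465-20073306, plus) were further apart, by 694 kb or more. Nlrp14 (ENSMUSG00000016626, chr7:107166990-107198102, plus) lay 80591 kb beyond Nlrp9a. The genes therefore did not form 1 cluster.

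**Figure D1:**
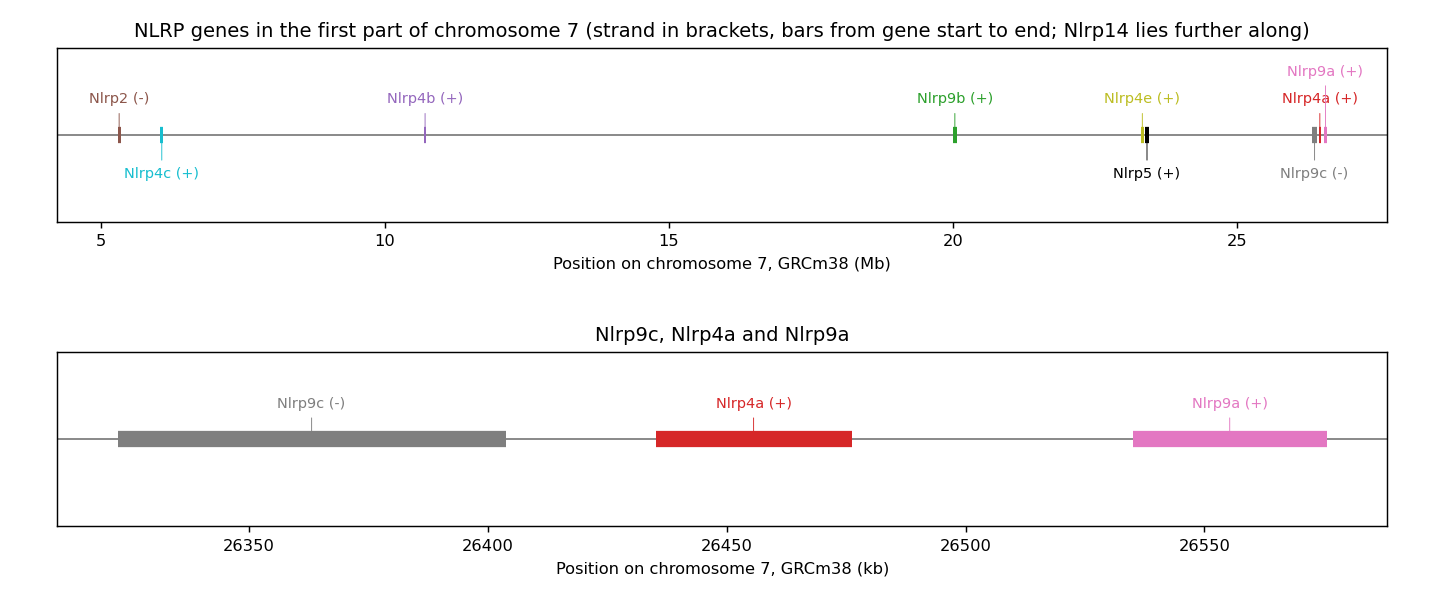
Positions of Nlrp2, the Nlrp4 and Nlrp9 genes and Nlrp5 on chromosome 7 (GRCm38), drawn to scale in Mb (upper panel), and the segment from Nlrp9c to Nlrp9a in kb (lower panel). Nlrp9c, Nlrp4a and Nlrp9a lie within 31.4 and 58.9 kb of each other, and Nlrp14 and Nlrp4f lie outside the upper panel.

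Together, the 10 genes took 1.001% and 1.002% of the gene counts at 10 cycles and 0.931% and 0.981% at 14 cycles. In whole oocytes at 18 cycles they took 0.198% (95% Wilson interval 0.193% to 0.203%) and 0.183% (0.176% to 0.189%), where the intervals cover counting error only, since the libraries carry no molecular identifiers. The 1/2 libraries gave 0.165% and 0.268%, the 1/4 libraries 0.377% and 0.361%, and the 1/8 libraries 0.634% and 0.803%. All whole oocytes at 10 and 14 cycles lay above all 8 libraries at 18 cycles, and among the latter both 1/8 libraries were highest and both 1/4 libraries next, while whole oocytes and 1/2 overlapped. As group means the share was 1.001% ± 0.00124, 0.956% ± 0.0350, 0.190% ± 0.0108, 0.216% ± 0.0729, 0.369% ± 0.0115 and 0.719% ± 0.119 (SD, n = 2 each) in the same order.

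Relative to the spike-in the order of the groups was different. Each library received the same amount of spike-in, so less lysate gives lower values on this scale by design. The 10 genes had 3237 and 3608 counts per 1000 ERCC counts at 10 cycles, 3229 and 3468 at 14 cycles, and 3708 and 2115 in whole oocytes at 18 cycles. They had 723 and 920.4 in 1/2, 808 and 627 in 1/4, and 313 and 373 in 1/8. On this scale whole oocytes of all 3 cycle numbers overlapped, every whole oocyte lay above every fraction, and both 1/8 libraries were lowest. The group means were 3422 ± 263, 3349 ± 169, 2911 ± 1126, 822 ± 140, 718 ± 128 and 343 ± 42.9 (SD, n = 2 each). The widest spread was that of whole oocytes at 18 cycles, which had only 1611 and 1474 ERCC counts.

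**Figure D2:**
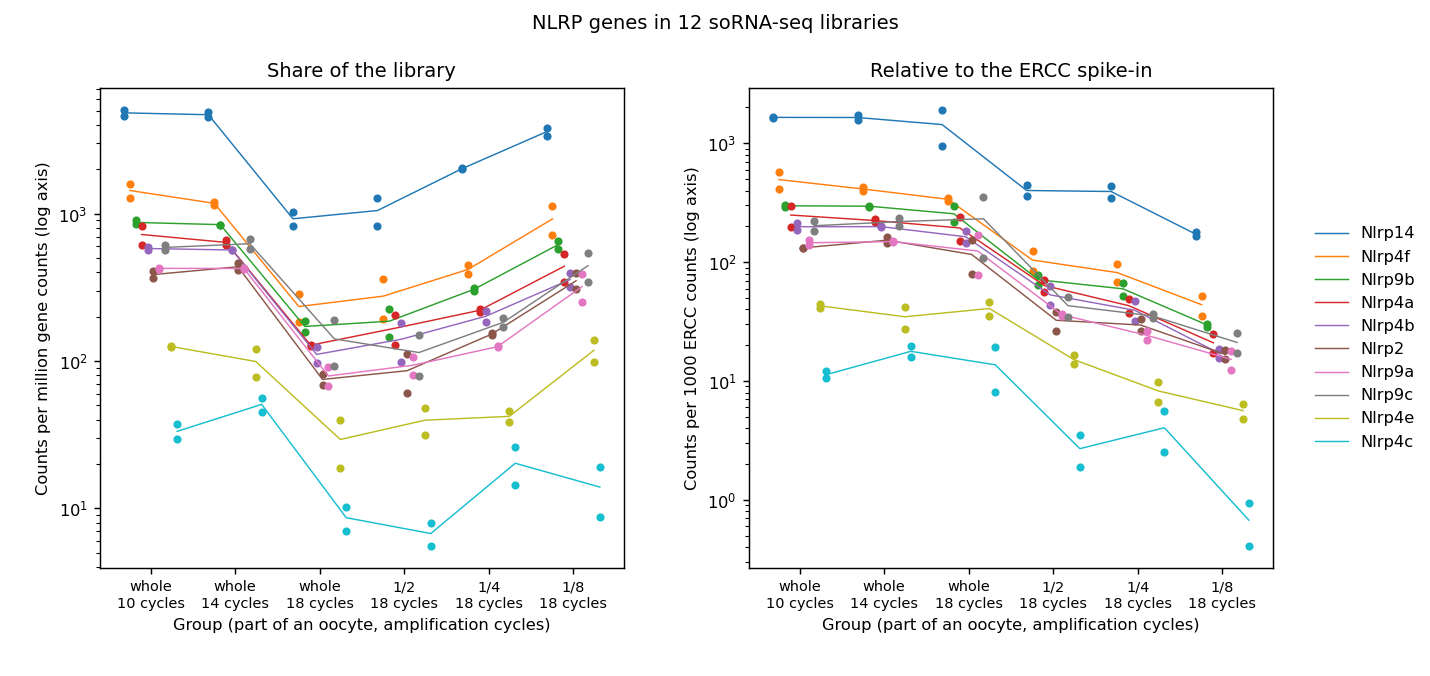
CPM (left, log axis) and counts per 1000 ERCC counts (right, log axis) of the 10 NLRP genes, where each point is 1 of the 12 libraries and lines join the group means. As a share of the library the genes are lowest in whole oocytes at 18 cycles and in 1/2, whereas relative to ERCC every whole oocyte lies above every fraction, so that the summed level is 2115 or more per 1000 ERCC counts in whole oocytes and at most 920.4 in the fractions. The same amount of ERCC was added to less lysate, so lower values of the fractions relative to ERCC are part of the design.

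Per length, the order of the genes was led by Nlrp14, with 807 ± 479 RPKM (CPM per kb of merged exons, mean and SD over the 12 libraries). Nlrp4f followed with 192 ± 129 and Nlrp9b with 134 ± 82.4 RPKM. Next came Nlrp4a (79.8 ± 51.7 RPKM), Nlrp4b (72.7 ± 45.0), Nlrp2 (70.65 ± 44.5), Nlrp9a (70.3 ± 45.9) and Nlrp9c (59.0 ± 38.4). Nlrp4e with 22.3 ± 12.85 and Nlrp4c with 5.56 ± 4.19 RPKM were lowest. The SD is wide because the groups differ, so neighbours were also compared within libraries. Nlrp14 exceeded Nlrp4f in 12 of 12 libraries, by 2.13 ± 0.30 on the log2 scale of RPKM, Nlrp4f exceeded Nlrp9b in 12 of 12 (0.47 ± 0.20), and Nlrp9b exceeded Nlrp4a in 12 of 12 (0.76 ± 0.20). At the other end, Nlrp9c exceeded Nlrp4e in 12 of 12 (1.31 ± 0.63) and Nlrp4e exceeded Nlrp4c in 12 of 12 (2.13 ± 0.99). Between them, Nlrp4a exceeded Nlrp4b in 10 of 12 (0.12 ± 0.15), Nlrp4b exceeded Nlrp2 in 7 of 12 (0.09 ± 0.27), Nlrp2 exceeded Nlrp9a in 7 of 12 (0.00 ± 0.21), and Nlrp9a exceeded Nlrp9c in 11 of 12 (0.26 ± 0.25). Places in the middle changed with the group, and Nlrp2 came 8th in whole oocytes at 18 cycles and 4th in 1/8. By the longest transcript or by the length that is unique to each gene, 7 of 10 genes kept their place, and those that moved lay between places 4 and 8. Among all genes, Nlrp14 ranked 12 by mean CPM over the 12 libraries, although its group means ran from 924 to 4838 CPM.

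The share that each gene took of the summed counts was also taken per library. Nlrp14 held 45.2% to 55.3% of them in the 12 libraries, Nlrp4f 9.36% to 16.0%, and Nlrp9b 7.94% to 10.2%, while Nlrp9c held 4.51% to 9.58%. Nlrp4e (0.796% to 2.18%) and Nlrp4c (0.110% to 0.691%) held the least.

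Nlrp14, whose protein protects the epigenetic regulator UHRF1 from degradation in the egg and is required from the mother for early development, had 5082 and 4594 CPM at 10 cycles, 4499 and 4895 at 14 cycles, 1022 and 826 in whole oocytes at 18 cycles, 819.7 and 1283 in 1/2, 2047 and 1996 in 1/4, and 3358 and 3842 in 1/8. It was highest at 10 and 14 cycles, with no overlap with any library at 18 cycles, and within those it was higher in 1/4 and 1/8 than in whole oocytes. In CPM, 8 of the 10 genes lay lower in all libraries at 18 cycles than in all at 10 and 14 cycles. Of 18041 genes, 8.80% lay lower and 3.61% higher in this way. Nlrp2, a maternal factor linked to the subcortical maternal complex and to imprinting in offspring, had 407 and 366 CPM at 10 cycles, 414 and 459.6 at 14 cycles, 81.5 and 68.6 in whole oocytes at 18 cycles, 60.4 and 112 in 1/2, 154 and 150.3 in 1/4, and 309 and 393 in 1/8. Its higher 1/8 library lay within the range of the whole oocytes at 10 cycles and its lower one below it. Nlrp4f, described as a partner of the same complex, had 1273 and 1603 CPM at 10 cycles, 1149 and 1204 at 14 cycles, 185 and 284 in whole oocytes at 18 cycles, 193 and 359 in 1/2, 447 and 389.5 in 1/4, and 717 and 1126 in 1/8. It showed the same order, with its higher 1/8 library just below the lowest library at 14 cycles.

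The Nlrp9 genes are a set of 3 close paralogs, of which Nlrp9b is known in intestinal epithelium as a sensor of viral RNA. Nlrp9b had 899.8 and 846 CPM at 10 cycles, 842.5 and 844 at 14 cycles, 157 and 186 in whole oocytes at 18 cycles, 147 and 226.5 in 1/2, 314 and 299 in 1/4, and 581 and 655 in 1/8. Nlrp9a had 429 and 423 CPM at 10 cycles, 424 and 426.5 at 14 cycles, 90.5 and 68.0 in whole oocytes at 18 cycles, 80.75 and 107 in 1/2, 124 and 126.5 in 1/4, and 253 and 387 in 1/8. In both genes the whole oocytes at 10 and 14 cycles lay above every library at 18 cycles, as in 8.80% of 18041 genes. Nlrp9c had 565 and 617 CPM at 10 cycles, 580.5 and 671 at 14 cycles, 189.6 and 93.2 in whole oocytes at 18 cycles, 79.0 and 149.5 in 1/2, 170.1 and 197 in 1/4, and 346 and 542 in 1/8. Its 2 whole oocytes at 18 cycles lay far apart and overlapped both the 1/2 and the 1/4 libraries.

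The Nlrp4 genes on chromosome 7 have less defined roles in the oocyte. Nlrp4a had 616 and 829.6 CPM at 10 cycles, 662 and 615 at 14 cycles, 127 and 129.5 in whole oocytes at 18 cycles, 128.5 and 206 in 1/2, 227 and 215.5 in 1/4, and 346 and 535 in 1/8. Nlrp4b had 571 and 591 CPM at 10 cycles, 565 and 569.7 at 14 cycles, 97.8 and 124 in whole oocytes at 18 cycles, 99.1 and 182 in 1/2, 218 and 184 in 1/4, and 318 and 398 in 1/8. Both were lowest in whole oocytes at 18 cycles and in 1/2. Neither overlapped between 10 or 14 cycles and the libraries at 18 cycles, where 8.80% of 18041 genes lay lower without overlap. Nlrp4e, the neighbour of Nlrp5, had 127 and 124.5 CPM at 10 cycles, 120.7 and 78.1 at 14 cycles, 18.9 and 39.85 in whole oocytes at 18 cycles, 31.6 and 47.8 in 1/2, 45.9 and 38.4 in 1/4, and 98.0 and 139 in 1/8. Its 1/8 libraries overlapped those at 10 and 14 cycles. Nlrp4c, the least abundant member, had 37.3 and 29.4 CPM at 10 cycles, 56.6 and 45.05 at 14 cycles, 10.3 and 7.03 in whole oocytes at 18 cycles, 7.95 and 5.56 in 1/2, 26.1 and 14.5 in 1/4, and 19.1 and 8.81 in 1/8. Its 1/8 libraries overlapped the whole oocytes at 18 cycles.

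The comparison of cycle numbers asked whether the number of amplification cycles leaves its mark on gene abundance in whole oocytes. All 6 whole oocytes entered 1 fit by edgeR's quasi-likelihood test over 17532 genes that reached 5 counts in 2 or more libraries, with p-values adjusted over all of them by Benjamini-Hochberg and a threshold of 0.01. Between 14 and 10 cycles, 0 of the 10 genes passed in edgeR or in DESeq2, against 0.0% of all genes. The log2 fold changes ranged from -0.37 for Nlrp4e to 0.58 for Nlrp4c, with a median of -0.07, and 1 gene, Nlrp4c, had an unadjusted p under 0.05. Its normalized counts at 14 cycles lay above those at 10 cycles, and its adjusted p was 0.9998 in edgeR.

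At 18 cycles all 10 genes were lower than at 10 cycles with median ratio normalization (10 of 10, against 10.8% of the genes tested), but with ERCC normalization, which scales to the spike-in, 0 of 10 were lower in edgeR and the median log2 fold change was 0.13 instead of -2.11. The same 10 genes were lower at 18 than at 14 cycles with median ratio normalization (10.7% of the genes tested), with a median of -2.03 that became 0.20 with ERCC normalization. The sign of these ERCC medians depended on which oocyte at 18 cycles was left out, with -0.41 and -0.42 without replicate 1 and 0.40 and 0.51 without replicate 2, where Nlrp9c was higher in both comparisons. Both comparisons share the oocytes at 18 cycles. In counts per 1000 ERCC counts the summed mean was lower at 18 cycles (2911) than at 10 (3422) and 14 cycles (3349), while the libraries overlapped. The 2 ways of scaling to the spike-in thus differed in sign. With median ratio normalization, Nlrp14 had 7288 and 6663 normalized counts at 18 cycles against 31154 and 29767 at 10 cycles, or -2.13 as log2 fold change (standard error 0.19, adjusted p = 7.37e-05 in edgeR). The largest difference was that of Nlrp4f, with 1321 and 2287 against 7806 and 10385 normalized counts, or -2.34 as log2 fold change (standard error 0.28, adjusted p = 0.000196 in edgeR). Nlrp2 differed by -2.10, Nlrp4a by -2.23, Nlrp4b by -2.12, Nlrp9a by -2.16 and Nlrp9b by -2.07 on the log2 scale.

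Smaller log2 fold changes against 10 cycles were seen for Nlrp4c, Nlrp9c and Nlrp4e. Nlrp4c had 73.3 and 56.7 against 229 and 190.4 normalized counts, or -1.66 as log2 fold change (standard error 0.31, adjusted p = 0.00202 in edgeR). Nlrp4e had 135 and 321 against 776.5 and 807 normalized counts, or -1.87 as log2 fold change (standard error 0.37, adjusted p = 0.00277 in edgeR). Nlrp9c had 1352 and 751 against 3462 and 3996 normalized counts, or -1.81 as log2 fold change (standard error 0.27, adjusted p = 0.0006305 in edgeR). The normalized counts of all 10 genes lay lower at 18 than at 10 cycles without overlap, as did those of 39.9% of all genes tested. The calls of these 3 genes depended on single oocytes, since leaving out replicate 1 at 10 cycles left 8 calls (without Nlrp4c and Nlrp4e), replicate 2 at 10 cycles 7 (without Nlrp4c, Nlrp4e and Nlrp9c), replicate 1 at 18 cycles 9 (without Nlrp4e) and replicate 2 at 18 cycles 9 (without Nlrp4c). Against 14 cycles, Nlrp4e had the smallest log2 fold change (-1.50, adjusted p = 0.00887 in edgeR), and its call was lost without either oocyte at 10 cycles, replicate 1 at 14 cycles or replicate 1 at 18 cycles, which left 9. In such fits the lone library of a group is assumed to vary like the other groups.

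The choice of scaling moved all genes together. The median log2 fold change of the 17532 genes was -0.29 with median ratio normalization and 1.96 with ERCC size factors for 18 against 10 cycles, and -0.29 and 1.97 for 18 against 14 cycles. With ERCC size factors, 47.6% of genes were called higher and 0.0% lower at 18 than at 10 cycles, and 47.9% higher and 0.0114% lower than at 14 cycles, whereas 0 of the 10 NLRP genes passed in either direction in edgeR and 0 had an unadjusted p under 0.05. Without replicate 2 at 18 cycles 1 gene, Nlrp9c, was higher than at 10 and than at 14 cycles with ERCC size factors, and the medians of the NLRP genes were 0.40 and 0.51. Without replicate 1 at 18 cycles 0 passed in edgeR, 3 and 4 had an unadjusted p under 0.05, and the medians were -0.41 and -0.42. The median for 18 against 10 cycles was also 0.01 and 0.28 without replicate 1 and replicate 2 at 10 cycles. From 13.4% of all genes (for Nlrp4f) to 21.9% (for Nlrp4c) had a lower log2 fold change than the member itself at 18 against 10 cycles with median ratio normalization.

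**Figure D3:**
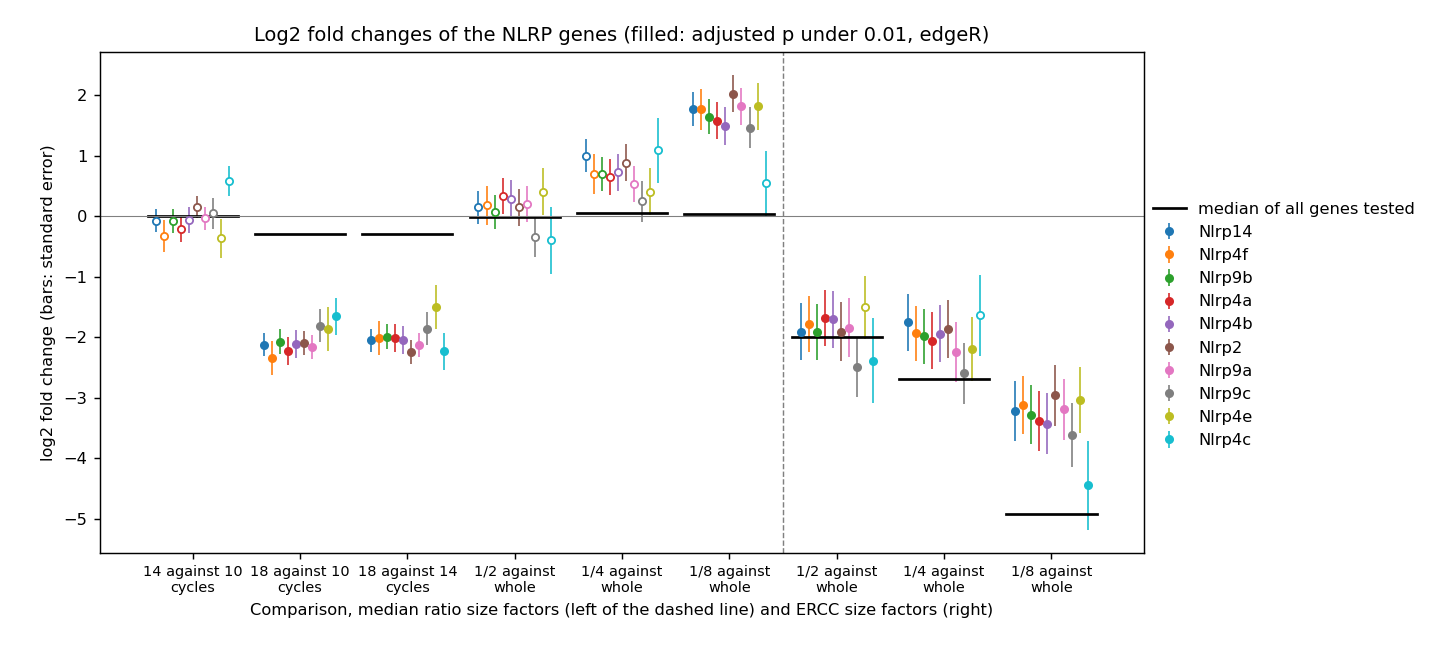
Log2 fold changes of the 10 NLRP genes (points, bars show the standard error, filled where the adjusted p in edgeR was under 0.01) and the median of all genes tested (black lines) in the comparisons of cycle numbers and of fractions with whole oocytes at 18 cycles, by median ratio size factors left of the dashed line and ERCC size factors right of it. For 1/8 against whole oocytes 9 genes are higher with median ratio normalization and 10 are lower with ERCC normalization, with medians of 1.70 and -3.25 against -4.92 for all genes with ERCC, and for 18 against 10 cycles the median of -2.11 becomes 0.13 with ERCC size factors.

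The fractions asked how the profile of an oocyte appears when less of its lysate enters the library. The 8 libraries at 18 cycles entered 1 fit of 14788 genes by edgeR's quasi-likelihood test, and each fraction was compared with the same 2 whole oocytes, so the comparisons share them. With median ratio normalization, which scales to the genes, 9 of 10 NLRP genes were higher in 1/8 than in whole oocytes (against 7.06% of the genes tested), whereas with ERCC normalization 10 of 10 were lower (against 87.5%). In 1/2, 0 of 10 passed with median ratio normalization in edgeR or DESeq2 and 0 had an unadjusted p under 0.05, against 0.122% of all genes called. In 1/4, 0 of 10 passed in edgeR, against 0.46% of all genes, and DESeq2 called 1 higher, Nlrp14, against 0.467% of all genes. At an unadjusted p under 0.05 in edgeR there were 6. The share of all genes at this looser cutoff is not given here.

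With median ratio normalization the median log2 fold change of the 10 genes came to 0.16 for 1/2, 0.69 for 1/4 and 1.70 for 1/8, beside -0.01, 0.05 and 0.03 for all genes tested. In 1/8, Nlrp2 had 1018 and 1306 normalized counts against 296 and 274 in whole oocytes, or 2.02 as log2 fold change (standard error 0.31, adjusted p = 9.57e-05 in edgeR). Nlrp14 had 11076 and 12764 against 3709 and 3297 normalized counts, or 1.77 as log2 fold change (standard error 0.28, adjusted p = 0.00012 in edgeR). For Nlrp9a the log2 fold change was 1.81 (standard error 0.30, adjusted p = 0.000188 in edgeR), and for Nlrp4e 1.815 (standard error 0.39, adjusted p = 0.00166 in edgeR). Nlrp4f differed by 1.76, Nlrp9b by 1.64, Nlrp4a by 1.58, Nlrp4b by 1.48 and Nlrp9c by 1.46 on the log2 scale. Nlrp4c, with 63.1 and 29.3 against 37.3 and 28.1 normalized counts, did not pass and its groups overlapped (log2 fold change 0.54, standard error 0.53, adjusted p = 0.475 in edgeR). The number of calls in 1/8 was 4 without replicate 2 of 1/8 (Nlrp14, Nlrp2, Nlrp9a and Nlrp9b), 5 without replicate 1 of the whole oocytes (Nlrp4a, Nlrp4b, Nlrp4e and Nlrp4f lost) and 8 without replicate 2 of the whole oocytes (Nlrp9c lost).

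In 1/4, the highest log2 fold changes were those of Nlrp4c (1.09) and Nlrp14 (0.9965, unadjusted p = 0.00149 and adjusted p = 0.0721 in edgeR, adjusted p = 0.00493 in DESeq2). Nlrp2 followed with 0.88 and an unadjusted p of 0.00838 in the same edgeR fit, and Nlrp9c was lowest with 0.25. The normalized counts of 8 genes lay above those of whole oocytes without overlap, as did those of 26.5% of all genes tested, and those of Nlrp4e and Nlrp9c overlapped. In 1/2 the log2 fold changes ranged from -0.40 for Nlrp4c to 0.40 for Nlrp4e, and all 10 genes overlapped with whole oocytes, where 20.5% of all genes tested lay lower and 21.0% higher without overlap.

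With ERCC normalization the same libraries showed lower levels in every fraction. As the same amount of spike-in was added to less lysate, values below those of whole oocytes were set by the design. The calls below are therefore no finding about the NLRP genes. How far the medians lay from the dilution itself was not tested. In 1/2, 9 of 10 genes were lower than in whole oocytes (52.0% of the genes tested), with a median log2 fold change of -1.88 beside -1.997 for all genes. In 1/4, 9 of 10 were lower (69.7%), with a median of -1.97 beside -2.69 for all genes, and in 1/8, 10 of 10 (87.5%), with -3.25 beside -4.92. Nlrp14 had 25180 and 13132 ERCC-normalized counts in whole oocytes, 4863 and 5337 in 1/2, and 2004 and 2095 in 1/8. Its log2 fold change was -1.91 in 1/2 (standard error 0.47, adjusted p = 0.00056 in edgeR), -1.76 in 1/4 (standard error 0.46, adjusted p = 0.0006995 in edgeR) and -3.22 in 1/8 (standard error 0.49, adjusted p = 3.65e-08 in edgeR). The gene that did not pass was Nlrp4e in 1/2 (-1.51, adjusted p = 0.01045 in edgeR) and Nlrp4c in 1/4 (-1.64, adjusted p = 0.0237 in edgeR), and in all 3 fractions the normalized counts of the 10 genes lay below both whole oocytes, as did those of 78.8%, 85.8% and 89.2% of all genes tested. In counts per 1000 ERCC counts, which need no fit, each of the 10 genes was higher in all 6 whole oocytes than in all 6 fraction libraries, cycle numbers pooled, as were 21.6% of 18041 genes.

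These counts rested on few libraries for 1/2 and 1/4. In 1/2, 1 gene (Nlrp9c) passed without replicate 2 of 1/2, 4 (Nlrp4c, Nlrp9a, Nlrp9b and Nlrp9c) without replicate 1 of 1/2, and 2 (Nlrp4f and Nlrp9b) without replicate 1 of the whole oocytes. In 1/4, 2 genes (Nlrp9a and Nlrp9c) passed without replicate 2 of 1/4, 7 without replicate 1 of the whole oocytes (Nlrp2, Nlrp4c and Nlrp14 not) and 10 without replicate 2 of the whole oocytes. In 1/8 all 10 passed whichever library was left out.

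Neighbouring fractions were compared without the whole oocytes as the reference. From 1/2 to 1/4, 0 of 10 genes passed with median ratio normalization in edgeR or DESeq2, against 0.0% of all genes, and 4 had an unadjusted p under 0.05 (Nlrp2, Nlrp4c, Nlrp9b and Nlrp14). From 1/4 to 1/8, 1 gene was higher with median ratio normalization (1.54% of the genes tested), while 9 had an unadjusted p under 0.05 and DESeq2 called 5 higher (2.6%). It was Nlrp9a, with 835 and 1286 against 444 and 421 normalized counts (log2 fold change 1.29, standard error 0.29, adjusted p = 0.00634 in edgeR), and the 5 in DESeq2 were Nlrp2, Nlrp4e, Nlrp9a, Nlrp9b and Nlrp9c. The count in edgeR was 0 without replicate 1 or replicate 2 of 1/4 or without replicate 2 of 1/8, and 2 (Nlrp4e and Nlrp9a) without either whole oocyte. The medians of the members were 0.55 and 1.01 beside 0.02 and 0.01 for all genes. Shares of all genes under the unadjusted p are not given here.

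With ERCC size factors, an alternative chosen after seeing the data, these directions were other ones. From 1/2 to 1/4 the median of the members was then -0.13 beside -0.73 for all genes, and 0 of 10 genes passed in edgeR and 0 had an unadjusted p under 0.05, against 0.0406% of all genes called. From 1/4 to 1/8 the median was -1.24 beside -2.19 for all genes, and 5 of 10 genes were lower in edgeR (Nlrp4a, Nlrp4b, Nlrp4c, Nlrp9b and Nlrp14), against 60.2%. The count was 0 in edgeR without replicate 1 of 1/4 or replicate 2 of 1/8, where 2 and 7 genes had an unadjusted p under 0.05. It was 1 without replicate 1 of 1/8 (Nlrp4c), 3 without replicate 2 of 1/2 or replicate 2 of 1/4 (Nlrp4b, Nlrp4c and Nlrp14) and 6 without either whole oocyte (Nlrp4f gained). From 1/2 to 1/4 the median was 0.03 without replicate 2 of 1/2, 0.05 without replicate 2 of 1/4, and -0.33 and -0.41 without replicate 1 of 1/2 and of 1/4.

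The whole oocytes at 18 cycles had lower shares of the NLRP genes than those at fewer cycles, so the fractions were also set against another reference. Against the whole oocytes at 10 cycles, in a fit of all 12 libraries and 18041 genes, 10 of 10 genes were lower in 1/2 with median ratio normalization (6.88% of the genes tested), 9 of 10 in 1/4 (4.17%) and 0 of 10 in 1/8 (0.0%) by edgeR, where 3 genes had an unadjusted p under 0.05. The medians were -1.96, -1.43 and -0.41 beside -0.30, -0.17 and -0.06 for all genes, so the higher values in 1/8 seen against whole oocytes at 18 cycles were not seen here. With ERCC normalization and the same reference, 8 of 10 genes were lower in 1/2 (2.13%), 9 in 1/4 (7.75%) and 10 in 1/8 (74.3%), with medians of -1.83, -2.07 and -3.19 beside -0.12, -0.81 and -2.82 for all genes. The count in 1/4 with median ratio normalization fell to 1 without replicate 2 of 1/4 (Nlrp9a), 5 without replicate 1 of 1/4 and 6 without either oocyte at 10 cycles, and that in 1/2 to 9 without either of these oocytes or either 1/2 library. In 1/2 with ERCC normalization the count was 0 in edgeR without replicate 1 of 1/2, where all 10 had an unadjusted p under 0.05, 1 without replicate 2 at 10 cycles (Nlrp9b), 7 without replicate 2 of 1/2 (Nlrp9a lost), 9 without replicate 2 of 1/8 (Nlrp4c gained) and 10 without either whole oocyte at 18 cycles. In 1/4 it was 0 in edgeR without replicate 2 of 1/4, where 9 had an unadjusted p under 0.05, 2 without replicate 1 of 1/4 (Nlrp4b and Nlrp4f) and 3 without replicate 2 at 10 cycles (Nlrp4f, Nlrp9a and Nlrp9b). In 1/8 it was 10 in each such fit, and with median ratio normalization 0 in each in edgeR, with 1 to 5 genes under an unadjusted p of 0.05 and a median of -0.27 without replicate 1 of 1/8 and -0.72 without replicate 2. Here the fractions differ from the reference in both the cycle number and the amount of lysate, and these cannot be told apart.

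Nlrp5, the member of the family outside the list, had 1367 and 999 CPM at 10 cycles, 1311 and 1217 at 14 cycles, 489 and 274 in whole oocytes at 18 cycles, 230.1 and 432 in 1/2, 748 and 615.5 in 1/4, and 646 and 788 in 1/8. It was lower at 18 than at 10 cycles with median ratio normalization (log2 fold change -1.38, standard error 0.25, adjusted p = 0.00187 in edgeR), and in 1/8 it did not pass against whole oocytes (0.72, adjusted p = 0.0911 in edgeR). With ERCC normalization it was lower in 1/8 (-4.33, adjusted p = 1.49e-10 in edgeR). Its call against 10 cycles was lost without either oocyte at 10 cycles. Whether it differed from the other NLRP genes was not tested.

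The subcortical maternal complex list held 6 genes. At 18 against 10 cycles with median ratio normalization, 4 of 6 were lower (Nlrp5, Ooep, Tle6 and Padi6, against 10.8% of all genes tested) and 1 was higher (Khdc3), with a list median of -1.16 beside -0.29 for all genes, whereas with ERCC size factors 0 were lower in edgeR, 3 were higher (Tle6, Zbed3 and Khdc3, against 47.6%), 4 had an unadjusted p under 0.05 and the median was 1.16 beside 1.96. Khdc3 had 2556 and 2741 CPM at 10 cycles and 15169.7 and 8377 in whole oocytes at 18 cycles (log2 fold change 2.39, standard error 0.25, adjusted p = 0.000117 in edgeR). It thus moved the other way from the NLRP genes with median ratio normalization. The normalized counts of 28.1% of all genes tested lay higher at 18 than at 10 cycles without overlap, while the share called higher is not given here. Ooep, which helps to hold the complex together, differed by -1.52, and Padi6, needed for the cytoplasmic lattices of the oocyte, by -2.01. Without either oocyte at 10 cycles Nlrp5 and Tle6 did not pass, which left 3 calls, and the call of Tle6 was lost whichever of the 6 oocytes was left out, while Zbed3 was called higher without replicate 1 at 18 cycles. Of the 3 calls with ERCC size factors, that of Tle6 was lost without any 1 oocyte except replicate 2 at 18 cycles, which left 2, and 5 genes passed without that replicate (Nlrp5 and Ooep gained). In 1/8 against whole oocytes, Ooep (2.11) and Padi6 (1.25) were higher and Khdc3 (-2.09) was lower with median ratio normalization. Of all genes tested, 7.06% were called higher there, and the normalized counts of 30.9% lay lower without overlap. The share called lower there is not given here. With ERCC normalization all 6 were lower (87.5% of all genes tested), with a median of -4.15 beside -4.92 for all genes. The call of Padi6 was lost without replicate 2 of the whole oocytes or replicate 1 of 1/8, which left 2 calls, and there were 4 without replicate 1 of the whole oocytes (Zbed3 lower) or replicate 2 of 1/8 (Tle6 higher).

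Of 17 other NOD-like receptor genes in the files, 5 were abundant enough for the cycle fit. Nlrc4, an adaptor of the inflammasome that senses bacterial flagellin with the Naip proteins, had 52.2 and 45.4 CPM at 10 cycles and 9.61 and 7.03 in whole oocytes at 18 cycles. Naip1 (log2 fold change -2.04), Nlrc4 (-2.27) and Nod2 (-1.52) were lower at 18 than at 10 cycles with median ratio normalization (3 of 5, against 10.8% of all genes tested), with a list median of -2.04 beside -0.29 for all genes, whereas with ERCC size factors 0 passed in edgeR, 0 had an unadjusted p under 0.05 and the median was 0.26 beside 1.96, or -0.78 without replicate 1 at 18 cycles. Leaving out replicate 1 at 18 cycles left 0 of these calls in edgeR, replicate 1 at 10 cycles 1 (Naip1), and any other oocyte 2 (without Nod2). In 1/8 against whole oocytes, 1 of the 4 genes tested, Nlrc4, was higher with median ratio normalization (2.08, adjusted p = 0.00233 in edgeR), against 7.06% of all genes tested. This call was lost without either whole oocyte or replicate 1 of 1/8. With ERCC normalization Naip1, Nlrc4 and Nod2 were lower in 1/8, as were 87.5% of all genes tested. Nlrp3, the best known inflammasome sensor, had at most 1.74 CPM in the 12 libraries, and Nlrp1a, Nlrp1b and Ciita had 0 counts in all of them.

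Among 10 inflammasome partners, 6 were tested for cycle number. At 18 against 10 cycles with median ratio normalization 0 passed in edgeR or in DESeq2, 2 had an unadjusted p under 0.05 in edgeR, and the list median was -0.99 beside -0.29 for all genes. Without replicate 2 at 18 cycles 1 gene, Casp8, was lower. Nek7 and Dhx9 were higher with ERCC size factors (2 of 6, against 47.6% of all genes tested), and 0 passed in edgeR without either oocyte at 10 cycles or replicate 1 at 18 cycles, where 2 had an unadjusted p under 0.05. The most abundant were Nek7, Dhx9 and Casp8, with means of 22.9, 19.2 and 12.2 CPM, and these 3 were lower in each fraction with ERCC normalization, as were 52.0%, 69.7% and 87.5% of all genes tested in 1/2, 1/4 and 1/8. In 1/2 these calls were 0 in edgeR without replicate 1 of the whole oocytes or replicate 2 of 1/2, and 2 (without Casp8) without replicate 2 of the whole oocytes. In 1/4 there were 2 without replicate 1 of the whole oocytes (Dhx9 lost) or replicate 1 of 1/4 (Casp8 lost). The adaptor Pycard had at most 1.81 CPM, and the cytokine gene Il1b had 0 counts in all libraries.

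Of 5 genes linked to Nlrp14 or Nlrp2, 4 were tested. Dnmt1 (-1.14) and Dppa3 (-2.30) were lower at 18 than at 10 cycles with median ratio normalization (against 10.8% of all genes tested), while Uhrf1 (-0.27) and Kpna2 (-1.11) did not pass, and with ERCC size factors 1 gene, Uhrf1, was higher (against 47.6%). That call was lost without either oocyte at 10 cycles, and 3 genes passed without replicate 2 at 18 cycles (Dnmt1 and Kpna2 gained). The call of Dnmt1 was lost without either oocyte at 10 cycles, which left 1. Dppa3 was higher in 1/8 than in whole oocytes with median ratio normalization (2.25, adjusted p = 1.72e-05 in edgeR), and with ERCC normalization all 4 were lower there (87.5% of all genes tested). Slc8b1 had at most 0.729 CPM.

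Annotated NLRP pseudogenes and other loci numbered 4, of which 2 were tested for cycle number. Nlrp4g, with 0.586 to 15.9 CPM, was lower at 18 than at 10 cycles with median ratio normalization (-2.77, adjusted p = 0.00351 in edgeR) and did not pass in 1/8 (2.45, adjusted p = 0.0397 in edgeR). Its call was lost without either oocyte at 10 cycles or without replicate 2 at 18 cycles. With ERCC normalization Nlrp4g had a log2 fold change of -2.58 in 1/8, beside -4.92 for all genes, and did not pass. Of the stretches of 50 bases in Nlrp4f, 3.88% also occur in Nlrp4g, so these counts are uncertain. Nlrp5-ps had at most 1.38 CPM, and Nlrp4d and Nlrp1c-ps had counts in 1 library each.

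Markers of the labelled cell were present throughout. The 12 oocyte markers all had counts in every library, and summed to 23285 and 21072 CPM at 10 cycles, 23469 and 24739 at 14 cycles, 6716 and 5729 in whole oocytes at 18 cycles, 7959.7 and 7914 in 1/2, 11944 and 12459 in 1/4, and 18755 and 17120 in 1/8. This sum was lowest in the same libraries as the NLRP genes, and Gdf9 was the most abundant marker (mean 3682 CPM). With median ratio normalization, 9 of 12 were lower at 18 than at 10 cycles (10.8% of all genes tested) and 8 of 12 higher in 1/8 than in whole oocytes (7.06%), among them Gdf9 (-1.44 and 1.102), Bmp15 (-1.99 and 1.49), Zp2 (-1.91 and 1.37) and Oosp1 (-2.46 and 2.75), whereas with ERCC normalization all 12 were lower in 1/8 (87.5%), and at 18 against 10 cycles 4 were higher (47.6%) and 0 lower in edgeR, 6 with an unadjusted p under 0.05. The count in 1/8 was 3 without replicate 1 of 1/8, 4 without either whole oocyte, 6 without either 1/4 library and 7 without replicate 2 of 1/8. At 18 against 10 cycles with median ratio normalization it was 7 without replicate 2 at 10 cycles (Npm2 and Zp1 lost), 8 without replicate 1 at 10 cycles or either oocyte at 14 cycles (Zp1 lost), and 8 without replicate 2 at 18 cycles (Zp1 lost), where Figla was higher. The 4 calls there with ERCC size factors became 0 without either oocyte at 10 cycles, 3 and 2 without replicate 1 and replicate 2 at 14 cycles, and 1 and 8 without replicate 1 and replicate 2 at 18 cycles. The part of such a shift of oocyte transcripts in the values of the NLRP genes was not tested.

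Markers of cumulus and granulosa cells, which surround the oocyte, summed to 143.9 and 86.2 CPM at 10 cycles, 106.5 and 151.5 at 14 cycles, 64.3 and 26.4 in whole oocytes at 18 cycles, 34.0 and 31.7 in 1/2, 58.6 and 60.2 in 1/4, and 78.3 and 73.4 in 1/8. Of 12 genes, 11 were tested for cycle number and Kitl (-1.99) and Cyp19a1 (-1.92) were lower at 18 than at 10 cycles (against 10.8% of all genes tested), and Cyp19a1 (2.34) was higher in 1/8 (1 of 7, against 7.06%), with median ratio normalization. The calls at 18 cycles were 0 without replicate 2 at 10 cycles or replicate 1 at 18 cycles and 1 (Cyp19a1) without any other oocyte, and that in 1/8 was lost without replicate 1 of the whole oocytes, while Inha was lower there without replicate 2. With ERCC normalization all 7 genes tested were lower in 1/8 (87.5% of all genes), with a median of -6.24 beside -4.92 for all genes, Cyp19a1 among them (-2.58). This count was 2 without replicate 1 of the whole oocytes (Cyp19a1 and Nr5a2) and 6 without replicate 1 of 1/2 (Inha lost). At 18 against 10 cycles 0 of 11 passed with ERCC size factors in edgeR (47.6% of all genes higher) and 3 had an unadjusted p under 0.05, whereas 3 were higher without either oocyte at 14 cycles (Inha, Amh and Foxl2) and 2 without replicate 2 at 18 cycles (Nr5a2 and Foxl2). The most abundant was Nr5a2 (mean 29.3 CPM), followed by Cyp19a1. Inha differed between oocytes of 1 group, with 34.15 and 0.326 CPM at 10 cycles, 3.64 and 31.9 at 14 cycles, and 17.2 and 0.586 in whole oocytes at 18 cycles, and had at most 2.73 CPM in the fractions. Of the same list, Amh, Fshr and Foxl2 had at most 6.63, 1.05 and 3.65 CPM, and Fshr had 0 counts in 9 libraries. By contrast, Nr5a2 reached 46.6 CPM in replicate 2 at 14 cycles, and Cyp19a1 reached 42.4 CPM in replicate 1 of 1/8. The summed share of the NLRP genes was 1.001% and 1.002% in the same 2 oocytes at 10 cycles, and the part of granulosa RNA in their values was not tested.

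The 6 markers of blood and immune cells summed to at most 6.55 CPM and the 6 of surface epithelium and stroma to at most 10.8 CPM. Cd68 and Krt8 were the most abundant by mean CPM, and Hba-a1 had 0 counts in all libraries. Krt8 was highest in replicate 2 of 1/2 (10.6 CPM) and replicate 2 of 1/4 (8.71 CPM). It had 0 counts in replicate 2 of the whole oocytes at 18 cycles and replicate 2 of 1/8. At 18 against 10 cycles with median ratio normalization, 0 of 2 and 0 of 5 genes tested passed in edgeR or DESeq2, and 0 and 1 had an unadjusted p under 0.05. With ERCC normalization Cd68, Krt8 and Krt18 were lower in 1/8, as were 87.5% of all genes tested. The call of Cd68 was lost without replicate 2 of the whole oocytes or of 1/8, that of Krt8 without replicate 1 of the whole oocytes, replicate 2 of 1/2 or replicate 2 of 1/4, and that of Krt18 without replicate 1 of the whole oocytes or of 1/4.

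The genes whose profile over the 12 libraries was nearest to the mean profile of the 10 NLRP genes were found among the 8859 genes with at least 10 CPM on average, by the root mean square difference of centred log2(CPM + 1). They were Pla2g4c (0.124), Khdc1b (0.144), Atp6v1a (0.1503), Oog2 (0.157) and Hhat (0.164), where the median of all genes outside the list was 0.963. Pla2g4c, a phospholipase gene that also lies on chromosome 7 (chr7:13324655-13360672), had 1059 and 801 CPM at 10 cycles, 180.0 and 192 in whole oocytes at 18 cycles, and 593 and 597 in 1/8. Oog2, an oogenesin gene of the germ line, had 244 and 269 CPM at 10 cycles, 47.1 and 41.6 in whole oocytes at 18 cycles, and 173 and 191 in 1/8. Within the list, Nlrp9b (0.0761) and Nlrp4b (0.119) were nearest to the mean profile and Nlrp4e (0.391) and Nlrp4c (0.634) farthest, while Nlrp5 (0.378) came in place 457 among the genes outside. The members themselves make up this mean, which draws it toward them. Even so, 520 genes outside were nearer to it than Nlrp4e and 2011 nearer than Nlrp4c, while 0 were nearer than Nlrp9b or Nlrp4b.

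Around the 10 genes, 53 annotated genes lay within 50 kb, and 11 of them had at least 1 CPM on average, of which 9 were outside the list. Ceacam20, 361 bases from Nlrp9b, was lower at 18 than at 10 cycles with median ratio normalization (-1.87, adjusted p = 0.000147 in edgeR) and higher in 1/8 than in whole oocytes (1.87, adjusted p = 0.000308 in edgeR). Igsf23, 40709 bases from Nlrp9b, was also lower at 18 cycles (-1.07, adjusted p = 0.00956 in edgeR), as was Gm5065 (-2.77, adjusted p = 8.54e-05 in edgeR), which overlaps Nlrp2 on the opposite strand and was higher in 1/8 (2.42, adjusted p = 0.000231 in edgeR). The reverse was seen for Zfp787, 26341 bases from Nlrp4c, which was higher at 18 cycles (2.36, adjusted p = 0.000835 in edgeR), and Rbmxl2, 11343 bases from Nlrp14, was lower in 1/8 (-3.96, adjusted p = 0.000178 in edgeR). Gm18757 and Gm45379, which overlap Nlrp2 and Nlrp4b, and Gm5321 did not pass at 18 against 10 cycles. The call of Igsf23 was lost without any 1 of the oocytes but replicate 2 at 18 cycles, and that of Zfp787 without either oocyte at 10 cycles. Without replicate 1 at 18 cycles Rbmxl2 was higher there. In 1/8 the call of Rbmxl2 was lost without replicate 1 of 1/8, and Igsf23 was higher without replicate 2 of 1/8. Neighbours of the NLRP genes thus moved in both directions with median ratio normalization. Of all genes tested, 10.8% were lower at 18 than at 10 cycles and 7.06% were higher in 1/8 than in whole oocytes. The shares called higher at 18 cycles and lower in 1/8 are not given here. Without overlap, the normalized counts of 28.1% lay higher at 18 than at 10 cycles and those of 30.9% lower in 1/8. Values of the neighbours with ERCC normalization are not given here. Whether the counting used strand was not settled. The counts of Nlrp2, of which 2.99% of exonic bases overlap Gm18757 on the opposite strand, are therefore uncertain to that extent. Those of Nlrp9b, of which 3.65% overlap Gm18877 on the same strand, are uncertain to that extent with or without strand.

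In base composition the 10 genes were alike, with 39.0% to 44.7% GC in their exons (median 42.0%, beside 49.0% over all genes tested), and their longest transcripts had 3216 to 4259 bases. The 3803 other genes tested within this GC range had a median log2 fold change of -0.90 at 18 against 10 cycles with median ratio normalization, beside -2.11 for the 10 genes, and 18.3% of them were lower and 5.34% higher. The part of GC content in the result was not tested further.

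Near-identical copies limit what the counts can show. The deposited counts hold 0 reads marked as mapping to several places, and how such reads were treated before counting is not shown. Of the stretches of 50 bases in the exons of Nlrp4e, 36.7% also occur in other annotated transcripts, mostly of pseudogenes such as Gm16443, and 8.24% occur in Nlrp4c. For Nlrp4c the shared part was 10.7%, for Nlrp9b 7.79%, for Nlrp9a 6.07% and for Nlrp4f 5.95%, and it was at most 2.63% for Nlrp2, Nlrp4a and Nlrp9c and 0% for Nlrp4b and Nlrp14. By this measure alone the counts of Nlrp4e are the least certain. In coding sequence, Nlrp4c and Nlrp4e were the closest pair, with 93.9% identity over 2934 aligned bases, followed by Nlrp9a and Nlrp9c with 88.3%, Nlrp4a and Nlrp4c with 86.9%, Nlrp4a and Nlrp4e with 86.5%, and Nlrp9a and Nlrp9b with 85.4%. Identity of Nlrp14 or Nlrp2 with any other member was at most 74.7%.

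The longest runs that paralogs share without a mismatch are shown because reads inside them cannot be assigned to 1 gene. Between Nlrp4c and Nlrp4e the run has 120 bases and lies in exon 1 of 9 of both coding transcripts (GRCm38, chr7:6060700-6060849 for Nlrp4c and chr7:23301387-23301536 for Nlrp4e, both on the plus strand, GENCODE exons). Capitals mark the shared run, and the 15 bases on each side are in lower case.
Nlrp4c: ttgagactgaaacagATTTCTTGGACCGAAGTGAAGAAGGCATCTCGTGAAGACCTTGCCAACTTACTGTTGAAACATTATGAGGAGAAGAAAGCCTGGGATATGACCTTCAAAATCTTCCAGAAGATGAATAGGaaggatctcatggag
Nlrp4e: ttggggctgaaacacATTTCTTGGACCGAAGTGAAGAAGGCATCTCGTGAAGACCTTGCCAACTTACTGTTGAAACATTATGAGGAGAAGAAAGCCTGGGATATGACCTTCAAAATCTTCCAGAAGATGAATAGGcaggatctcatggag

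Between Nlrp9a and Nlrp9b the longest run has 129 bases and lies in exon 3 of 10 of both (chr7:26557532-26557690 and chr7:20023413-20023571, plus strand). Capitals again mark the shared run.
Nlrp9a: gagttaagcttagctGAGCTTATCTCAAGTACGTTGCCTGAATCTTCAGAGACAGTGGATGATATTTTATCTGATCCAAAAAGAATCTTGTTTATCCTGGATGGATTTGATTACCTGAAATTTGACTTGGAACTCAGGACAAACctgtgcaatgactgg
Nlrp9b: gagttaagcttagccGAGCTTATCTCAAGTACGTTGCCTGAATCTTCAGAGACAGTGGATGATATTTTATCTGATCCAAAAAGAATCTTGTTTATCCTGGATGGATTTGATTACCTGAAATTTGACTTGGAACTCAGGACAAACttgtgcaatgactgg

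Promoters were compared as sequences, without use of the counts. Whether they have a part in the lower values of the 10 genes at 18 cycles with median ratio normalization was not tested. Those lower values were not called with ERCC normalization. RefSeq (GRCm38.p6) gave 11 promoters of 300 bases for 9 of the 10 genes, and none for Nlrp14. Nlrp4a and Nlrp4b had 2 each, and those of Nlrp4b, with starts at chr7:10687793 and chr7:10687821, overlap. The promoters of Nlrp9c and Nlrp9a were 96.8% identical over 252 aligned bases, those of Nlrp4b and Nlrp4a 82.3% over 277, and those of Nlrp4c and Nlrp4a 80.4% over 260. The letters CCAAT, or ATTGG on the other strand, occurred in 8 of the 11 promoters (7 of 9 genes) and in 37.4% of all 32851 promoters of this length. At least 3 matches were found in Nlrp4c, Nlrp9c and Nlrp9a, and in 3.37% of all promoters. Other searches, on both strands, found TAATTA in 1 of 11 (5.29% of all promoters), TAATTG in 2 (8.00%), CANNTG in 10 (72.3%) and TATAAA in 1 (13.6%). Such a match is a description of these letters and no evidence of a bound factor. For Nlrp4a, the promoter with its start at chr7:26435614 was compared above and is shown. The promoter at its other start, chr7:26435113, had 0 matches to CCAAT or ATTGG and aligned with that of Nlrp4b over 18 bases. The windows from 100 bases before to 30 after the annotated start are shown for the genes with similar promoters, with CCAAT or ATTGG in capitals, at chr7:26534923-26535052 (plus strand) for Nlrp9a, chr7:26403671-26403800 (minus) for Nlrp9c, chr7:6045061-6045190 (plus) for Nlrp4c, chr7:10687693-10687822 (plus) for Nlrp4b and chr7:26435514-26435643 (plus) for Nlrp4a.
Nlrp9a: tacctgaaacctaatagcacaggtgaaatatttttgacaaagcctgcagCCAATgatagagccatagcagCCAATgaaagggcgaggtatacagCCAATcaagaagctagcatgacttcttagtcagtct
Nlrp9c: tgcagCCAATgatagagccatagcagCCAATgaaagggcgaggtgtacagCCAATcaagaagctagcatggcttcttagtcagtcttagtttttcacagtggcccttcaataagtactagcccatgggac
Nlrp4c: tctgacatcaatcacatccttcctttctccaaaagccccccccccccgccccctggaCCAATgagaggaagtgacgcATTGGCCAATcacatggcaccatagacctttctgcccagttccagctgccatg
Nlrp4b: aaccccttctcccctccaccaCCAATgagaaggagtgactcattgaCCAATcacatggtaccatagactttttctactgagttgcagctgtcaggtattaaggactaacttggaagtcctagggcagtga
Nlrp4a: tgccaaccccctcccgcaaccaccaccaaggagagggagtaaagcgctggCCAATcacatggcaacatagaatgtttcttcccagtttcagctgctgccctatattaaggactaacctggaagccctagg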

How the data were processed

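Poly(A) RNA was measured by soRNA-seq in 12 libraries of GV oocytes with ERCC spike-in. The deposited files hold raw counts for each gene and ERCC molecule, which the authors made with HTSeq after trimming and mapping to GRCm38, and the submitters' notes name cutadapt 2.5, FastQC 0.11.8, STAR 2.7.2a, SAMtools 1.9, HTSeq 0.9.1, R 3.5.1 and DESeq2 1.24.0. The share of reads outside annotated genes was 6.90% to 10.8%. Library depth is given in the report, Wilson intervals at 95% cover counting error only, and the chi-square per degree of freedom between replicates was 10.0 to 16.7.

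Fits used edgeR 4.0.16 in R 4.3.3 (quasi-likelihood F test, 2 libraries a group, no covariate) on genes that reached 5 counts in 2 or more libraries, with Benjamini-Hochberg adjustment over all genes tested and a threshold of 0.01. Median ratio size factors scale to the genes, and ERCC size factors scale to the spike-in. With ERCC size factors less lysate shows as lower values by design, for the members and for every other list. The calling was also run on simulated counts with as many raised as lowered genes. In these, unlike in the libraries here, spike-in counts followed depth, so no conclusion about the calls is drawn from them. Levels are CPM over gene counts, RPKM per kb of merged exons, and counts per 1000 ERCC counts. Group names and replicates follow the labels.

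The alternatives were DESeq2 1.42.0, TMM, ERCC size factors, total ERCC counts, no filter, a stricter filter of 10 counts or more in each library, a replicate block, whole oocytes at 10 cycles as the reference in a fit of all 12 libraries, and leaving out each library. For the order of levels, they were the longest transcript, the length of unique 50-base stretches, and reads without a gene added to the total. ERCC size factors for neighbouring fractions were chosen after seeing the data. Leaving out each library in the fits with ERCC size factors for cycle numbers and for neighbouring fractions, and in those with the reference at 10 cycles, was also added after seeing the data. Identity between members was planned on proteins and was computed on coding nucleotides.

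The genes named are the 10 members and Nlrp5, the genes of the other lists that were called or are among the 4 most abundant of their list, the 5 genes with the nearest profile, and neighbours within 50 kb with at least 1 CPM. Genes of these lists at or near 0 counts were named after their values were seen. The lists were the subcortical maternal complex, other NOD-like receptors, inflammasome partners, partners of Nlrp14 and Nlrp2, NLRP pseudogenes, and markers of oocytes, cumulus and granulosa, blood and immune cells, and surface epithelium and stroma. Members and lists were chosen with earlier results of these data known.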

Additional observations from a re-analysis of the deposited data

How the results depend on the processing

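Among single members, the direction and the side of the threshold were the same in 70 of 70 values with TMM, 30 of 30 with total ERCC counts, 94 of 100 with DESeq2, 96 of 100 with no filter, 97 of 100 with the stricter filter and 95 of 100 with a replicate block. Of those that differed, 6 with DESeq2, 4 with no filter, 2 with the stricter filter and 4 with the block kept their direction and passed the threshold only there, and Nlrp4e in 1/4 against 1/2 changed sign (0.038 with the stricter filter and 0.058 with the block). The counts of members called were as follows. With ERCC size factors 0 were called at 18 against 10 cycles and 0 at 18 against 14 cycles in edgeR (in both, 0 members reached an unadjusted p under 0.05), while 5 were called in 1/8 against 1/4, the last chosen after seeing the data. With the reference of whole oocytes at 10 cycles and median ratio normalization they were 10 in 1/2, 9 in 1/4 and 0 in 1/8 (3 with an unadjusted p under 0.05 in edgeR). These counts moved when 1 library was left out. Without replicate 2 at 18 cycles 1 member was called higher in both comparisons of cycle numbers with ERCC size factors, 1/8 against 1/4 gave 0 without replicate 1 of 1/4 or replicate 2 of 1/8 in edgeR (2 and 7 with an unadjusted p under 0.05), and with the reference at 10 cycles 1/4 gave 1 without replicate 2 of 1/4. DESeq2 called 1 in 1/4 against whole and 5 in 1/8 against 1/4, no filter 5 in 1/8 against 1/4, and the replicate block 3 there.

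Leaving out 1 library gave counts from 7 to 10 at 18 against 10 cycles and 9 to 10 at 18 against 14 cycles. With median ratio normalization they ranged from 4 to 9 in 1/8 against whole and from 0 to 2 in 1/8 against 1/4. With ERCC normalization 1/2 gave 1 to 9 calls, 1/4 gave 2 to 10, and 1/8 gave 10 in each such fit. The counts were 0 in every such fit in edgeR for 14 against 10 cycles, 1/2 and 1/4 against whole with median ratio normalization, and 1/4 against 1/2. The replicate block assumes that replicate numbers pair across groups, which the labels do not state, and the correlations of the same-number deviations lay between -0.15 and 0.17.

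The direction of single members, called or not, also turned in these cases, given as log2 fold changes. Single members at 14 against 10 cycles were not included in this check. With ERCC size factors, 18 against 10 cycles gave 0.14 for Nlrp14, 0.058 for Nlrp4b, 0.64 for Nlrp4c, 0.16 for Nlrp2, 0.52 for Nlrp9c, 0.27 for Nlrp4e, 0.11 for Nlrp9a and 0.12 for Nlrp9b. At 18 against 14 cycles they gave 0.23 for Nlrp14, 0.15 for Nlrp4f, 0.15 for Nlrp4b, 0.059 for Nlrp4c, 0.035 for Nlrp2, 0.23 for Nlrp4a, 0.51 for Nlrp9c, 0.66 for Nlrp4e, 0.17 for Nlrp9a and 0.22 for Nlrp9b. In 1/8 against 1/4 they gave -1.47 for Nlrp14, -1.49 for Nlrp4b, -1.32 for Nlrp4a, -0.95 for Nlrp9a, -1.29 for Nlrp9b, -1.18 for Nlrp4f, -1.098 for Nlrp2, -1.02 for Nlrp9c and -0.83 for Nlrp4e. In 1/4 against 1/2 they gave -0.16 for Nlrp4f, -0.24 for Nlrp4b, -0.38 for Nlrp4a, -0.10 for Nlrp9c, -0.40 for Nlrp9a and -0.074 for Nlrp9b. Means in counts per 1000 ERCC counts were instead lower at 18 than at 10 cycles for Nlrp14 (1435 against 1649), Nlrp4b (163 against 199) and Nlrp2 (116 against 132). They were also lower for Nlrp4e, Nlrp9a and Nlrp9b, but higher for Nlrp4c and Nlrp9c. At 18 against 14 cycles these means were lower for all members except Nlrp9c and Nlrp4e. The reference of whole oocytes at 10 cycles with median ratio normalization gave -1.97 for Nlrp14, -2.16 for Nlrp4f, -1.82 for Nlrp4b, -1.94 for Nlrp2, -1.89 for Nlrp4a, -1.43 for Nlrp4e, -1.95 for Nlrp9a and -1.997 for Nlrp9b in 1/2. In 1/4 it gave -1.14 for Nlrp14, -1.66 for Nlrp4f, -1.41 for Nlrp4b, -1.22 for Nlrp2, -1.59 for Nlrp4a, -1.57 for Nlrp9c, -1.45 for Nlrp4e, -1.65 for Nlrp9a, -1.39 for Nlrp9b and -0.59 for Nlrp4c. In 1/8 it gave -0.37 for Nlrp14, -0.59 for Nlrp4f, -0.64 for Nlrp4b, -0.085 for Nlrp2, -0.67 for Nlrp4a, -0.36 for Nlrp9c, -0.041 for Nlrp4e, -0.36 for Nlrp9a, -0.44 for Nlrp9b and -1.101 for Nlrp4c. Leaving out 1 library turned the sign of values that passed in no fit, with median ratio normalization. In 1/2 against whole they ranged from -0.17 to 0.41 for Nlrp14, -0.29 to 0.59 for Nlrp4f, -0.17 to 0.64 for Nlrp4b, -0.31 to 0.50 for Nlrp2, -0.83 to 0.17 for Nlrp9c, -0.13 to 1.09 for Nlrp4e and -0.23 to 0.32 for Nlrp9b. In 1/4 against whole they ranged from -0.13 to 0.76 for Nlrp9c and -0.13 to 1.08 for Nlrp4e, in 1/4 against 1/2 from -0.25 to 0.29 for Nlrp4e, and in 1/8 against whole from -0.17 to 0.94 for Nlrp4c. The cause was not tested.

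With 2 libraries a group, leaving out 1 leaves a lone library that is assumed to vary like the other groups. Whole oocytes at 18 cycles had the fewest ERCC counts (1611 and 1474). The part of these low counts in the spread of the values scaled to the spike-in was not tested. The fractions come from 2 oocytes only.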
